A study of Mus musculus with 6 samples.

Results

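Transcript use was described for 5 genes, Slc35a5, Mrrf, Camkk2, Zbtb37 and Primpol, in satellite cells, which are the stem cells of skeletal muscle, directly after their isolation. The 5 genes were selected on a difference between genotypes in the average length of their transcripts, out of 13219 genes with a mean of at least 1 CPM (reads scaled to the library total), and all 5 were among the 17152 genes that could be tested for a change in reads. The comparison of genotypes was the contrast that chose the 5 genes, so their values are given as a description, without p-values of their own. RNA was sequenced from 3 Pax7WT and 3 Pax7KR samples, all of the C57BL/6J strain. Pax7KR mice are homozygous for an arginine in place of an acetylated lysine of PAX7, the transcription factor that defines satellite cells. They were made by CRISPR-Cas9 editing of zygotes and bred from founders to the second generation, and Pax7WT mice are their wild type littermates. The mice were young adults with uninjured hindlimb muscles, and the mutation is present in every cell of the body. Satellite cells were sorted as α7-INTEGRIN+ and CD34+ and as negative for CD31, CD11b, SCA-1 and CD45, and 15 ng of RNA was used per library.

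A gene can give rise to transcripts of very different length, through the choice of the first exon, of the exons that are joined, of introns that are kept and of the 3′ end. A transcript in which the reading frame ends early can be destroyed by nonsense-mediated decay, so an exon that carries a stop codon can lower the output of a gene without a change in its transcription. Sequencing counts fragments, and a long transcript gives more fragments per molecule than a short one. The effective length is the number of positions at which a fragment can start, and TPM (a level scaled to the same sum in each library) divides the reads by it, so a TPM share is a share of molecules and a read share is a share of fragments. The average transcript length of a gene is the mean of its transcripts' effective lengths weighted by TPM. Slc35a5 belongs to the family of nucleotide-sugar transporters of the Golgi and endoplasmic reticulum. Mrrf encodes the mitochondrial ribosome recycling factor, which frees ribosomes after translation ends. Camkk2 encodes a calcium and calmodulin dependent kinase that phosphorylates other kinases, among them AMPK. Zbtb37 encodes a BTB domain zinc finger protein, and Primpol encodes a primase and polymerase that restarts DNA synthesis beyond lesions.

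The 6 libraries held 17822367 to 27908054 estimated reads. Satellite cell markers were high in all of them, with 6274 to 6894 summed CPM over 10 markers in Pax7WT and 6429 to 6807 in Pax7KR, and Pax7 itself ranged from 1410 to 1666 CPM. Of the genes for the surface proteins that the sort selects against, Ptprc (CD45) and Itgam (CD11b) were at most 1.29 CPM, Ly6a (SCA-1) was at 5.53 to 9.41 CPM and Pecam1 (CD31) at 20.7 to 50.4 CPM. Marker lists of other cell types were not all low. The 8 fibro-adipogenic markers, with Col3a1 the highest at 1339 CPM and Lum the lowest at 2.18 CPM, summed to 3039 to 3139 CPM in Pax7WT and 3106 to 3226 CPM in Pax7KR. The 8 smooth muscle and pericyte markers, most of it from Notch3, summed to 2505 to 2860 CPM and 2332 to 2567 CPM, and the 8 endothelial markers, most of it from Tek, to 260 to 330 CPM and 293 to 364 CPM. Immune markers summed to at most 16.8 CPM and myofibre markers to at most 59.8 CPM in a library. The summed level of 7 glial markers was the one marker sum that did not overlap, at 497 to 539 CPM in Pax7WT and 479 to 494 CPM in Pax7KR. Most of it came from Ncam1, with a mean of 420 CPM, while Cdh19 was the lowest at 1.78 CPM. The sum is thus largely that of 1 gene and does not measure glial cells. Of single genes, 10.4% of 13219 did not overlap by CPM. Library Pax7KR 2 stood apart in 4 Y-linked genes (Ddx3y, Eif2s3y, Kdm5d and Uty), which summed to 131 CPM there and to 299 to 355 CPM in the other libraries, while Xist was at most 2.29 CPM in each library. The part of these values in the results below was not tested, and the average lengths without Pax7KR 2 are given beside the main ones. Fewer cells of a kind and less RNA per cell cannot be told apart in such bulk samples.

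Short stretches that tell the shifted transcripts from the main ones are printed here, because the assignment of reads rests in part on them. They are given on the transcribed strand from 5′ to 3′, and come from the GENCODE M21 transcripts of the mouse build GRCm38. In Slc35a5 the capitals mark what follows the third exon, which is intron in Slc35a5-207 (chr16:45152562-45152576, minus strand) and the next exon in Slc35a5-201 (chr16:45151572-45151586).
Slc35a5-207: gtgttataaagaaagGTAATTGCTAATATT
Slc35a5-201: gtgttataaagaaagAAGATCATCAAAGTA
In Mrrf the capitals mark the stop codon inside an extra exon of Mrrf-202 (stop codon at chr2:36147418-36147420, plus strand), and, in Mrrf-201, the first bases of the exon that is joined when the extra exon is absent (chr2:36147903-36147917).
Mrrf-202: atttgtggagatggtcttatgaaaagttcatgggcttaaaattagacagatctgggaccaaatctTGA
Mrrf-201: ccaagaaagccaaagCTAAAGGGAAAGGAC
In Camkk2 the capitals mark a coding exon of 43 bases that is present in Camkk2-201 (chr5:122736988-122737030, minus strand) and, in Camkk2-211, the bases joined when that exon is skipped (chr5:122734231-122734245).
Camkk2-201: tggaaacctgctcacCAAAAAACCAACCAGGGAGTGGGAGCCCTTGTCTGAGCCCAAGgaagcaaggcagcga
Camkk2-211: tggaaacctgctcacGAAGCAAGGCAGCGA
In Zbtb37 the capitals mark the first bases of the second exon, which is the coding exon in Zbtb37-207 (chr1:161032747-161032761, minus strand) and an untranslated exon in Zbtb37-203 (chr1:161034270-161034284).
Zbtb37-207: tttccacccccggagGGTTGAATGTCTGCC
Zbtb37-203: tttccacccccggagCTCTCGCCCCTTCAG
In Primpol the capitals mark the 25 bases by which the 3′ end of Primpol-208 runs beyond that of Primpol-201 (chr8:46575594-46575618, minus strand), and the rest of the pair is identical letter for letter.
Primpol-208: tttgcAAATAAAAATATAAAAAAAACCTAA

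**Figure D1:**
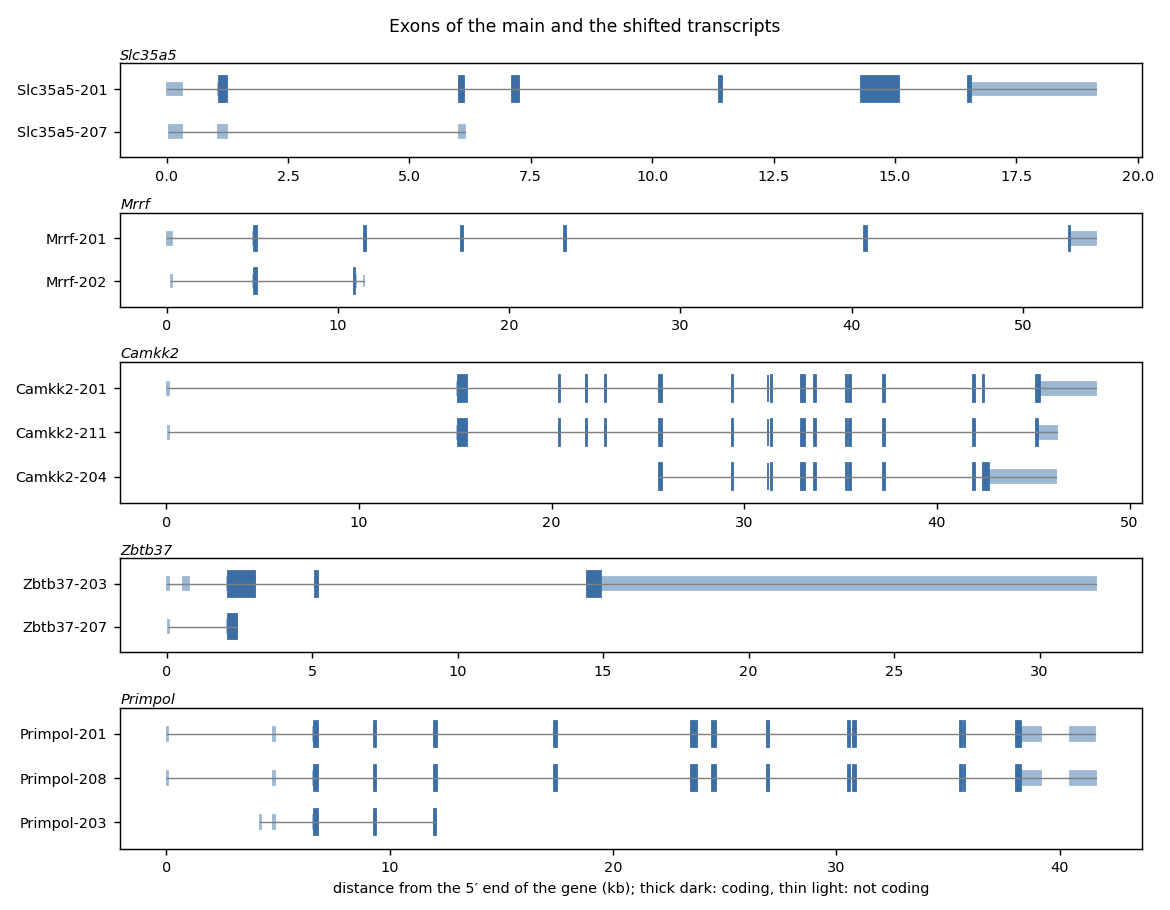
Exons of the main and the shifted transcripts of the 5 genes, drawn as distance in kb from the 5′ end of each gene, with coding parts thick and dark and other exon parts thin and light. Slc35a5-207, Mrrf-202, Zbtb37-207 and Primpol-203 cover a part of the gene near its 5′ end. Camkk2-211 lacks 1 short exon near the 3′ end, and its 3′ end falls short of that of the main Camkk2 transcript. Primpol-201 and Primpol-208 look alike.

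The average transcript length was greater in Pax7KR for 4 of the 5 genes and smaller for Slc35a5. For Zbtb37 it was 7656, 7605 and 8761 effective bases in the Pax7WT libraries and 11579, 10737 and 13779 in the Pax7KR libraries, or 8007 ± 653 against 12032 ± 1570 (SD, n = 3 each). For Slc35a5 it was 4000, 3909 and 3372 in Pax7WT and 2149, 2183 and 2422 in Pax7KR, or 3760 ± 339 against 2251 ± 149. The libraries of the genotypes did not overlap for either gene. For Mrrf it was 1697, 1350 and 1710 in Pax7WT and 2489, 2059 and 2240 in Pax7KR, or 1586 ± 204 against 2263 ± 216. For Primpol it was 2665, 2486 and 2723 in Pax7WT and 3665, 3405 and 3673 in Pax7KR, or 2625 ± 124 against 3581 ± 152. These values did not overlap either. For Camkk2 it was 2486, 3875 and 2174 in Pax7WT and 3620, 3440 and 3718 in Pax7KR, or 2845 ± 905 against 3593 ± 141. Here the groups overlapped, as Pax7WT 2 was above all 3 Pax7KR libraries. In all, the libraries did not overlap for 4 of the 5 genes, beside 10.1% of the 13219 genes. The rule used this contrast, and nothing is read from that count.

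**Figure D2:**
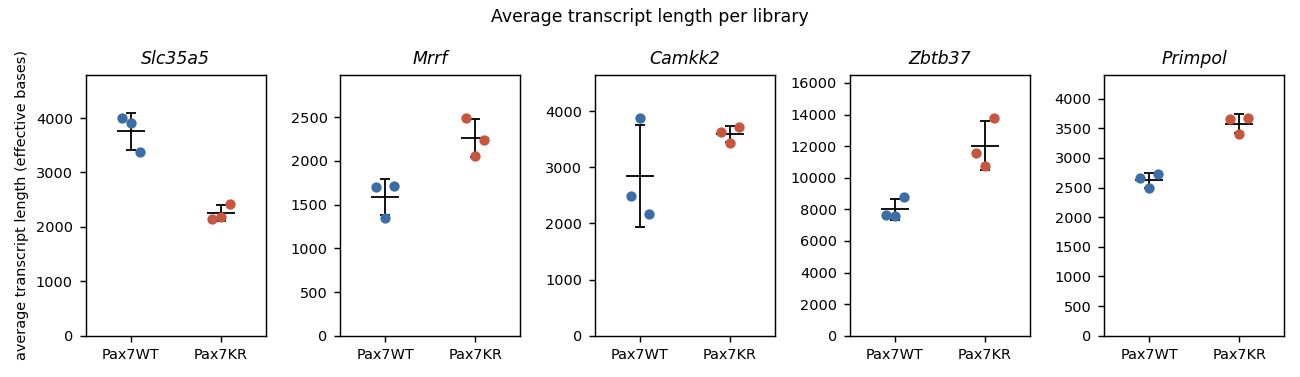
Average transcript length of each gene in effective bases, with 1 point per library (3 Pax7WT, 3 Pax7KR), the mean as a horizontal mark and the SD as a bar, on axes that start at 0. The genotypes are separate in Slc35a5, Mrrf, Zbtb37 and Primpol, and in Camkk2 a Pax7WT library at 3875 lies above the Pax7KR libraries.

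On the log2 scale the ratio of Pax7KR to Pax7WT average lengths was −0.74 for Slc35a5, 0.59 for Zbtb37, 0.51 for Mrrf, 0.45 for Primpol and 0.34 for Camkk2. Without Pax7KR 2 these log2 ratios were −0.72, 0.66, 0.58, 0.48 and 0.37. The ratio of Camkk2 rested on single Pax7WT libraries, and was 0.62 without Pax7WT 2 and 0.18 without Pax7WT 3. The absolute log2 ratio had a median of 0.030 over the 13219 genes, and its 99th percentile was 0.47. By this ratio Slc35a5 ranked 35, Zbtb37 71, Mrrf 104, Primpol 160 and Camkk2 336. The gene just above the highest of them was Foxm1, a transcription factor of the cell cycle, with a log2 ratio of −0.74. The gene just below Camkk2 was Klf8, a zinc finger transcription factor, with a log2 ratio of −0.34, and for it 1 Pax7KR library was at 1534 and the other 5 libraries were between 4270 and 4576. A test of transcript use, which compares the fold changes of the transcripts of a gene with each other, called 1 of the 5 genes, Slc35a5, with edgeR, beside 1.28% of 10789 genes. With limma it called 0 of the 5, beside 0.176%. In simulated data the edgeR test of transcript use called more unchanged genes than its threshold allows. The rule used this contrast too, so these counts are not independent evidence.

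Slc35a5-207, a transcript of 574 bases and 3 exons that GENCODE classes as a retained intron, had reads in each Pax7KR library and in no Pax7WT library. Slc35a5 (ENSMUSG00000022664.11) lies on the minus strand at chr16:45139573-45158706 and has 8 annotated transcripts. Slc35a5-207 was assigned 0 reads in each Pax7WT library and 49.8, 51.8 and 42.7 reads in the Pax7KR libraries, a mean of 48.1 ± 4.81 (SD, n = 3). The Pax7KR libraries were close to each other. In Pax7KR it took 38.6 ± 0.82% of the TPM of the gene and 7.11 ± 0.31% of its reads. The Wilson 95% intervals of the read share spanned 5.11% to 9.68% over the 3 Pax7KR libraries, and 0 of 854, 522 and 722 reads in Pax7WT allows shares of up to 0.351%, 0.575% and 0.416%. These intervals and limits describe the reads that chose the gene, and they cover counting error only, not the error of assigning a fragment to a transcript. Of the 544 sequences of 31 bases in Slc35a5-207, 15 occur in no other annotated transcript, and they are the ones that reach into the 15 bases of intron printed above.

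The full-length Slc35a5-201, of 4233 bases with a coding sequence of 437 codons, took 99.8%, 98.6% and 79.4% of the TPM of the gene in Pax7WT and 47.4%, 49.5% and 54.5% in Pax7KR. Its share of the reads was 97.6 ± 2.85% in Pax7WT and 88.1 ± 1.31% in Pax7KR, so the contrast between genotypes was 42.1 percentage points by TPM and 9.46 points by reads. A further transcript of the retained intron class, Slc35a5-203, of 912 bases, had 0 reads in the Pax7WT libraries and 30.8, 18.3 and 0 reads in the Pax7KR libraries. Taken as a class, the 3 retained intron transcripts held 1.40 ± 1.14% of the TPM of Slc35a5 in Pax7WT and 46.7 ± 5.63% in Pax7KR. The third of them, Slc35a5-206, did not follow this difference, with 2.02, 7.19 and 20.6 reads in Pax7WT and 8.22, 8.24 and 18.4 in Pax7KR. Slc35a5-202, a coding transcript of 679 bases, had 20.2 reads in Pax7WT 3 and 0 in the other Pax7WT libraries, and Pax7WT 3 also had the lowest average length of its group. The other 3 transcripts had no reads.

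Mrrf-202, the transcript of Mrrf that carries the early stop codon, had fewer reads in Pax7KR. Mrrf (ENSMUSG00000026887.9) lies on the plus strand at chr2:36136389-36190647 and has 4 annotated transcripts. Mrrf-202 has 392 bases and is classed as a target of nonsense-mediated decay. Its extra exon of 97 bases (chr2:36147353-36147449) ends the reading frame after 83 codons, where the full-length Mrrf-201 has 262. It was assigned 22.8, 26.8 and 20.2 reads in Pax7WT and 0, 8.58 and 4.34 reads in Pax7KR. Each Pax7WT library was above each Pax7KR library. As a share of the TPM of Mrrf this was 39.6 ± 8.96% in Pax7WT and 9.82 ± 9.37% in Pax7KR, and as a share of reads 5.79 ± 2.11% and 1.04 ± 1.02% (SD, n = 3 each). For single libraries the Wilson 95% interval of the read share ran from 2.88% to 6.72% in Pax7WT 3, the lowest of its group, and from 1.12% to 3.99% in Pax7KR 2, the highest of its group, so neighbouring libraries were within counting error of each other. The rule used these reads and no share over all transcripts is given, so nothing is read from the separation of the genotypes. Of the 362 sequences of 31 bases in Mrrf-202, 114 occur in no other transcript. Mrrf-201 held 93.7 ± 1.68% of the reads in Pax7WT and 98.6 ± 1.04% in Pax7KR, Mrrf-204 had at most 4.14 reads in a library and Mrrf-203 had none.

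Camkk2-211, which skips the exon of 43 bases, had more reads in Pax7KR. Camkk2 (ENSMUSG00000029471.13) lies on the minus strand at chr5:122731170-122779409 and has 11 annotated transcripts. As 43 is no multiple of 3, the reading frame after the skipped exon differs, and the coding sequence has 541 codons in Camkk2-211 and 588 in Camkk2-201. Camkk2-211 was assigned 0, 13.0 and 0 reads in Pax7WT and 19.8, 33.4 and 19.8 reads in Pax7KR. The groups did not overlap, and the Pax7WT library with reads was the same one, Pax7WT 2, that stood above the Pax7KR libraries in average length. As a share of the TPM of Camkk2 it was 2.07 ± 3.59% in Pax7WT and 17.4 ± 5.61% in Pax7KR, and as a share of reads 1.33 ± 2.31% and 12.2 ± 4.48%. The Wilson 95% interval was 2.35% to 6.70% in Pax7WT 2 and 6.31% to 14.4% in Pax7KR 3, which overlap slightly. The rule used these reads too and no share over all transcripts is given, so nothing is read from the separation of the groups. Of the 2721 sequences of 31 bases in Camkk2-211, 30 occur in no other transcript, and Camkk2-201 has 2016 of its own. The pair differs in the skipped exon and at both ends. The 3′ end lies at chr5:122733188 in Camkk2-211 and at chr5:122731170 in Camkk2-201, so reads in the longer 3′ end also tell the pair apart.

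Short transcripts with few reads made a large part of the TPM of Camkk2 in single libraries. Camkk2-210, of 443 bases, had 8.72 reads in Pax7WT 3, and these made 35.7% of the TPM of the gene there. Camkk2-206, of 432 bases, had 5.72, 0 and 1.23 reads in Pax7WT and none in Pax7KR, and its 5.72 reads made 21.0% of the TPM in Pax7WT 1. Camkk2-203, of 685 bases, had 10.8, 3.90 and 2.32 reads in Pax7WT and 3.56, 1.12 and 2.74 in Pax7KR. In average length the Pax7WT libraries thus spanned more, from 2174 to 3875, than the distance of the group means. The long Camkk2-201 held 73.4 ± 9.23% of the reads in Pax7WT and 69.3 ± 3.40% in Pax7KR, and Camkk2-204, with another 3′ end, 15.8 ± 8.16% and 14.7 ± 3.03%. Camkk2-202, of 1084 bases, had 7.64, 4.08 and 6.35 reads in Pax7WT and 0, 0 and 1.90 in Pax7KR.

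Zbtb37 (ENSMUSG00000043467.19), on the minus strand at chr1:161002922-161034849, showed the greatest distance between molecule and read shares among the 5 genes. Its main transcript, Zbtb37-203, has 18814 bases, of which 1512 code for protein, and its shortest, Zbtb37-207, has 363 bases in 2 exons and a coding sequence of 296 bases that is incomplete in the annotation. Zbtb37-207 was assigned 34.9, 26.2 and 19.9 reads in Pax7WT and 7.92, 12.0 and 1.52 reads in Pax7KR, so that all Pax7WT libraries were above all Pax7KR libraries. This was 1.11 ± 0.25% of the reads of the gene in Pax7WT and 0.294 ± 0.21% in Pax7KR. As a share of TPM the same reads were 44.9 ± 7.07% in Pax7WT and 16.9 ± 11.1% in Pax7KR. The contrast was thus 27.9 percentage points of TPM and 0.82 points of reads. The rule used these reads and no share over all transcripts is given, so nothing is read from the separation of the libraries. Zbtb37-203 held 94.2% of the reads in Pax7WT and 95.6% in Pax7KR, with 2290 ± 382 and 2282 ± 128 reads. Of the 333 sequences of 31 bases in Zbtb37-207, 28 occur in no other transcript, and they lie across the junction printed above. Of the other 5 transcripts, Zbtb37-206 had no reads, and Zbtb37-201 had 0 to 69.5 reads with libraries at 0 in both genotypes. Zbtb37-205, of 2141 bases, took 2.61 ± 1.79% of the TPM in Pax7WT and 6.91 ± 2.61% in Pax7KR. Its reads overlapped, at 27.3, 2.96 and 20.7 in Pax7WT and 16.6, 44.6 and 25.1 in Pax7KR.

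Primpol (ENSMUSG00000038225.15), on the minus strand at chr8:46575594-46617212, held a pair of transcripts between which the assigned reads switched from one library to another. Primpol-201 was assigned 0 reads in each Pax7WT library and 270, 334 and 0 reads in the Pax7KR libraries. Primpol-208 was assigned 440, 258 and 387 reads in Pax7WT and 98.1, 0 and 317 in Pax7KR. The 2 transcripts share each exon boundary and a coding sequence of 537 codons, and differ by 25 bases at the 3′ end, although GENCODE classes Primpol-208 as a target of nonsense-mediated decay and Primpol-201 as protein coding. Primpol-201 has 0 sequences of 31 bases that occur in no other transcript and Primpol-208 has 25, so most reads of the pair fit both. Pax7KR 3 resembled the Pax7WT libraries in having all reads of the pair on Primpol-208. Since their lengths are 3772 and 3797 bases, both count nearly the same in the average length.

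Short transcripts of Primpol had reads mainly in Pax7WT. Primpol-203, of 482 bases with a first exon of its own, was assigned 20.8, 14.8 and 1.85 reads in Pax7WT and 0 reads in each Pax7KR library. In Pax7WT 1 and 2 these reads made 30.1% and 32.0% of the TPM of Primpol, and 3.63% and 4.01% of its reads. In Pax7WT 3 the share of Primpol-203 was 3.11% of TPM, and instead Primpol-202 and Primpol-207, of 273 and 346 bases, made 9.68% and 8.58% from 2.00 and 2.81 reads. The 0 of 481, 461 and 459 reads in Pax7KR allows shares of Primpol-203 of up to 0.624%, 0.651% and 0.654%, above the 0.362% seen in Pax7WT 3. Primpol-205, of 3943 bases and classed as a target of nonsense-mediated decay, held 19.0 ± 3.53% of the reads in Pax7WT and 27.0 ± 3.37% in Pax7KR. Its groups did not overlap, with 22.6% the highest Pax7WT and 23.4% the lowest Pax7KR share. No share over all transcripts is given beside this, and nothing is read from it. Primpol-206, which has 0 sequences of its own, had 3.75, 13.2 and 36.3 reads in Pax7WT and none in Pax7KR.

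**Figure D3:**
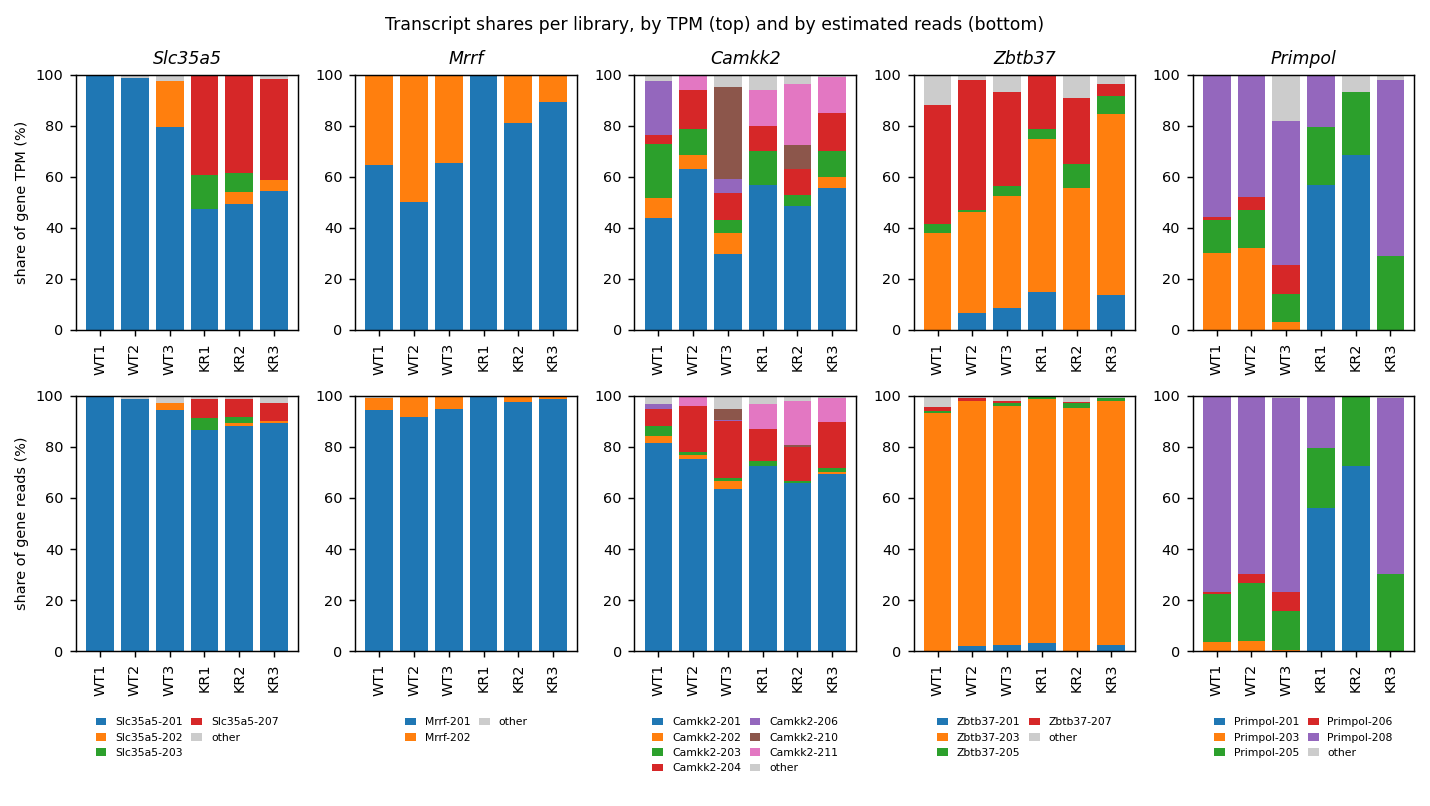
Share of each transcript in its gene, as percent of TPM in the upper row and percent of estimated reads in the lower row, for the 3 Pax7WT (WT1 to WT3) and 3 Pax7KR (KR1 to KR3) libraries, with transcripts under a mean of 5% of TPM in both genotypes joined as other. Zbtb37-207 fills a mean of 44.9% of the Pax7WT bars by TPM and 1.11% by reads. Primpol-201 replaces Primpol-208 in full in KR2 and in part in KR1, and not in KR3.

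Transcripts shorter than 1000 bases carried the differences in average length of all 5 genes. In Zbtb37 they held a mean of 27.0 reads in Pax7WT and 7.14 in Pax7KR, in Mrrf 23.3 and 4.31, in Primpol 14.1 and 0.333 and in Camkk2 10.9 and 2.94. In Slc35a5 they held 6.73 reads in Pax7WT and 68.9 in Pax7KR, the opposite order. When these transcripts were left out, a choice made after seeing the data, the log2 ratio of average lengths was 0.00 for Zbtb37, −0.02 for Slc35a5, 0.05 for Primpol, 0.00 for Mrrf and 0.01 for Camkk2. The average lengths were then 14422 ± 811 and 14445 ± 46.5 for Zbtb37, 3970 ± 52.9 and 3927 ± 38.4 for Slc35a5, 3534 ± 129 and 3660 ± 15.2 for Primpol, 2478 ± 5.43 and 2485 ± 4.49 for Mrrf and 4032 ± 217 and 4052 ± 96.8 for Camkk2, in Pax7WT and Pax7KR. The libraries of the genotypes then overlapped for each of the 5 genes. The effective length of a short transcript was similar in all libraries, at 194 to 199.6 bases for Zbtb37-207, 408 to 418 for Slc35a5-207, 217 to 228 for Mrrf-202 and 311 to 322 for Primpol-203. Among the 336 genes ranked as high as Camkk2 or higher, 329 had a value without such transcripts, and their median absolute log2 ratio was 0.44 with them and 0.027 without them. These genes were ranked by the value with short transcripts, so a fall without them follows in part from the ranking. The most shifted transcript was under 1000 bases in 45.2% of the 336 genes. The share was 35.6% of the 11513 ranked genes with at least 2 transcripts. It was so in 1 of the 5 genes, Zbtb37.

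The number of reads per gene differed little between genotypes. Zbtb37 was at 106, 114 and 117 CPM in Pax7WT and 100.1, 107 and 110.03 CPM in Pax7KR, a log2 fold change of −0.09 (SE 0.06). Slc35a5 was at 32.0 ± 2.91 and 29.9 ± 0.59 CPM, with a log2 fold change of −0.10 (SE 0.09). Primpol, at 22.2 ± 2.22 and 20.7 ± 1.24 CPM, and Mrrf, at 19.5 ± 2.28 and 18.5 ± 0.67 CPM, had log2 fold changes of −0.11 (SE 0.11) and −0.07 (SE 0.11). The libraries of the genotypes overlapped for these 4 genes. Camkk2 was at 10.2, 18.4 and 9.89 CPM in Pax7WT and 8.88, 8.04 and 9.84 CPM in Pax7KR, a log2 fold change of −0.52 (SE 0.24). Its groups did not overlap, beside 10.4% of all genes, and without Pax7WT 2, the highest library, its log2 fold change was −0.17. At an adjusted p under 0.1 in edgeR's quasi-likelihood test, 0 of the 5 genes were called, beside 0% of 17152 genes, and 0 of the 5 had an unadjusted p under 0.05, beside 4.68%.

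By TPM, which divides by transcript length, the libraries of the genotypes did not overlap for any of the 5 genes, beside 13.2% of the 13219 genes. TPM carries the length that chose the genes, so nothing is read from that count. Slc35a5 was at 12.6, 12.0 and 16.7 TPM in Pax7WT and 23.3, 23.6 and 20.1 TPM in Pax7KR. Camkk2 was at 6.59, 7.56 and 7.29 TPM in Pax7WT and 4.17, 3.95 and 4.33 TPM in Pax7KR. Pax7WT 2, the highest library of Camkk2 by reads, was thus close to the other Pax7WT libraries by TPM. Zbtb37 was at 22.5 ± 1.25 and 14.9 ± 1.87 TPM, Mrrf at 19.8 ± 2.49 and 13.7 ± 0.78 TPM and Primpol at 13.6 ± 0.95 and 9.67 ± 0.09 TPM in Pax7WT and Pax7KR. Over the 6 libraries the median levels, per length, were 19.1 TPM for Zbtb37, 18.4 for Slc35a5, 15.7 for Mrrf, 11.2 for Primpol and 5.46 for Camkk2. The ranges of Zbtb37, Slc35a5 and Mrrf overlapped one another, and Camkk2 was below all of the other genes in each library.

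**Figure D4:**
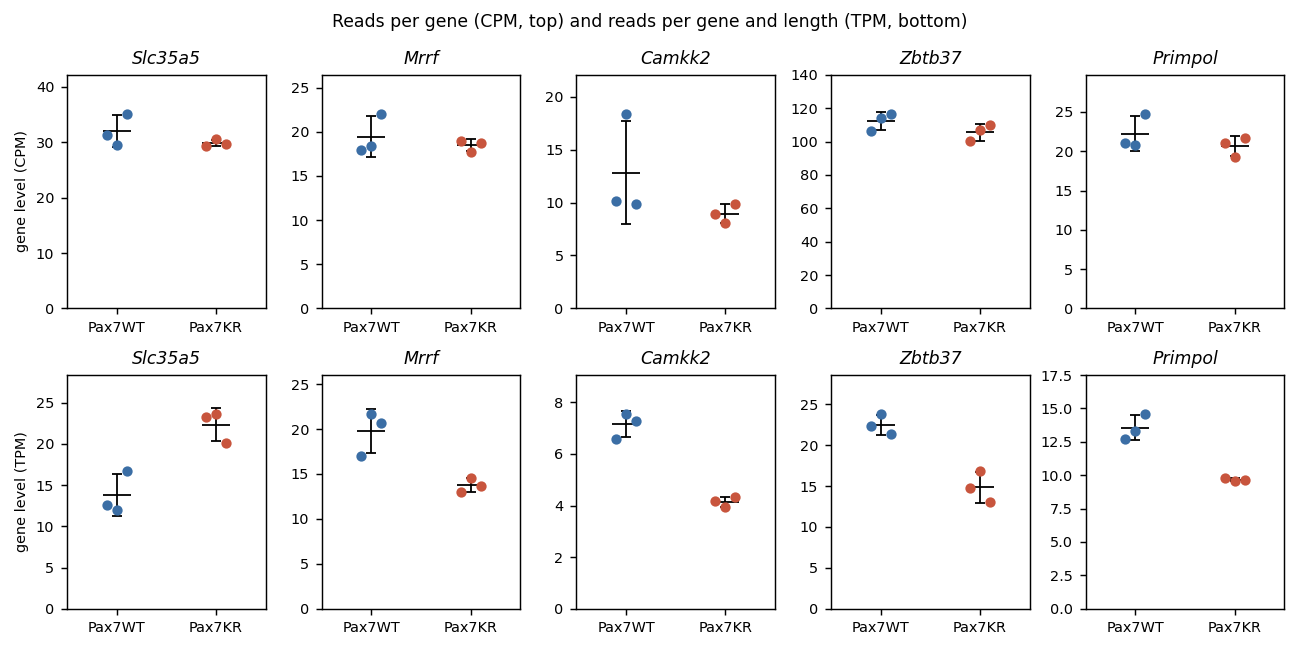
Level of each gene as reads (CPM, upper row) and as reads per length (TPM, lower row), with 1 point per library (3 Pax7WT, 3 Pax7KR), the mean as a horizontal mark and the SD as a bar, on axes that start at 0. The CPM of the genotypes overlap except for Camkk2, and the TPM, which carry the length that chose the genes, are separate for all 5, beside 13.2% of all genes, with Slc35a5 higher and the other 4 lower in Pax7KR.

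An offset for average transcript length was added to the test of reads, which then asks for a change in molecules and not in fragments, and the fold changes followed the lengths. The log2 fold change of Slc35a5 went from −0.10 to 0.63 (SE 0.14) and so changed sign. Those of Zbtb37, Mrrf, Primpol and Camkk2 went to −0.66 (SE 0.09), −0.59 (SE 0.13), −0.55 (SE 0.11) and −0.85 (SE 0.15). The offset carries the length that chose the genes, so these moves followed from the choice and are not independent evidence. The SE does not cover the error of the lengths. With the offset 0 of the 17152 genes were called. The median log2 fold change over all genes was −0.004 without the offset.

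**Figure D5:**
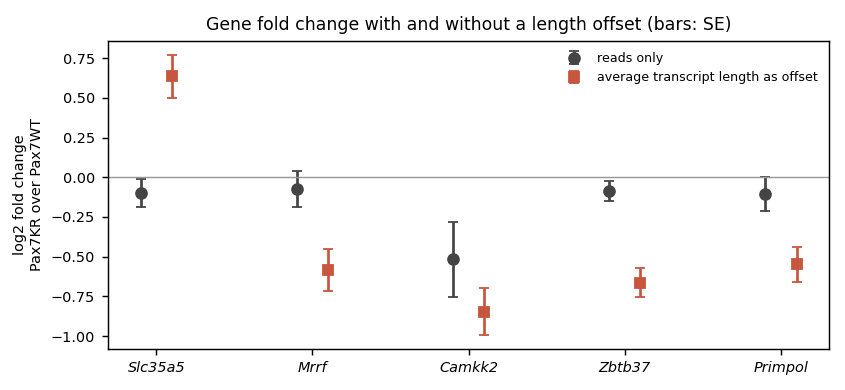
Log2 fold change of Pax7KR over Pax7WT for each gene from the reads alone (circles) and with an offset for average transcript length (squares), with the SE as bars and a line at 0. Slc35a5 goes from −0.10 to 0.63, and the other 4 genes move to between −0.55 and −0.85. The offset carries the length that chose the genes.

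The genes that work beside these 5, and the machinery that makes and removes such transcripts, gave 0 called genes in each of 7 lists with edgeR. Over all 17152 genes edgeR called 0% too, so the 0 in each list says nothing about the lists. Of 20 factors of nonsense-mediated decay 8 had higher and 12 lower values in Pax7KR, and the median log2 fold change was −0.003, and of 20 factors of cleavage and polyadenylation 7 were higher and 13 were lower (median −0.02). The highest decay factor was Upf3a, which takes part in the recognition of early stop codons, at 29.3 ± 1.86 and 34.6 ± 1.53 CPM (log2 fold change 0.24). The lowest was Smg8 (−0.18). Of the cleavage and polyadenylation factors the lowest was Cstf2t, which binds RNA downstream of the cleavage site, at 49.7 ± 6.26 and 43.3 ± 2.23 CPM (−0.20). The highest was Cstf3 (0.13). Of 22 other tested SLC35 transporters 13 were higher and 9 lower (median 0.01), of 13 mitochondrial translation factors 9 and 4 (median 0.03) and of 23 genes of DNA damage tolerance and fork restart 14 and 9 (median 0.03). Of 21 genes of the calcium-calmodulin kinase and AMPK cascade 9 were higher and 12 lower (median −0.01). Of 39 other genes with a symbol starting in Zbtb 16 were higher and 23 lower (median −0.01), and the extremes were Zbtb11os1, an RNA from the opposite strand of a gene of the family, with −0.50, and Zbtb16, a BTB zinc finger repressor, with 1.00. Zbtb16 was at 36.6, 53.6 and 48.1 CPM in Pax7WT and 100.1, 114 and 62.8 CPM in Pax7KR. These groups did not overlap, beside 10.4% of 13219 genes by CPM. The edgeR adjusted p of Zbtb16 was 0.992, or 0.0817 without Pax7KR 3, the lowest of its group. In that setting 32 genes were called in all, against 0 with all libraries. Genes with an unadjusted p under 0.05 numbered 5 in the Zbtb list, 1 each among the SLC35 transporters, the mitochondrial translation factors, the kinase cascade and the decay factors, and 0 in the other lists, beside 4.68% of all genes.

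The average transcript length of the listed genes was compared in the same way, without the 5 genes. The median absolute log2 ratio was between 0.016, in the decay factors, and 0.060, in the genes of DNA damage tolerance, beside 0.030 over all genes. The largest values were those of Camk2b, a subunit of calcium-calmodulin kinase II, with a log2 ratio of 0.56 at 0.929 CPM in Pax7WT and 1.93 CPM in Pax7KR, and of Mtrf1l, a mitochondrial release factor, with 0.44.

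Over the 6 libraries the genes whose level (log2 of CPM + 1) went most closely with Zbtb37 were Gm49317 and Elmo1, those with Slc35a5 were Igsf9b and AC169509.1, those with Primpol were Gm49327 and Rfc3, those with Mrrf were Haus7 and Rogdi, and those with Camkk2 were Polr3g and Fdps. Their Pearson correlations were between 0.98 and 1.00 among 13278 genes, and 18 to 61 genes per member were above 0.95. The 6 libraries share their 2 genotypes and their depth, and the correlations are given as a description.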

How the data were processed

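RNA from freshly isolated satellite cells of 3 Pax7WT and 3 Pax7KR samples was analysed, grouped by their labels, with no sample left out. Each library is a separate biological sample per the labels. The authors quantified paired reads with salmon (version 1.3.0) against GENCODE M25 transcripts of GRCm38 and genomic decoys. They deposited, per transcript, estimated counts without normalization, with fractions of reads, and TPM values and effective lengths. Salmon splits fragments that fit several transcripts by likelihood, and the error of that split is not in the values used here. The authors' deposited table of their own comparison (fold changes and p-values) was not used.

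Of 140992 transcripts, 139791 were matched by identifier to GENCODE M21 on the same build, and the 1201 others, with 0.592% to 0.634% of the reads, were left out. Estimated counts were summed per gene and rounded. Genes with at least 5 reads in at least 2 libraries were tested with edgeR (version 4.0.16), with TMM, the robust quasi-likelihood test and Benjamini-Hochberg adjustment at 0.1, and the biological coefficient of variation was 13.75%. CPM use TMM library sizes. Transcript use was tested with diffSpliceDGE in edgeR and with diffSplice in limma (version 3.58.1) on transcripts with the same minimum. Both steps were tested on simulated data, in which edgeR called more unchanged genes for transcript use than its threshold allows and limma came close to it. DESeq2 (version 1.42.0) was an alternative. R was version 4.3.3 and Python version 3.11.15. Depth was 17822367 to 27908054 reads, and Wilson 95% intervals and limits from a count of 0 (3 reads) cover counting error only.

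The genes and lists were chosen with earlier results of these data known. Named are the 5 genes, their transcripts with a mean of at least 5% of TPM in either genotype and the genes ranked next to them by average length. Also named are the 2 extremes of some lists and the 2 genes most alike in CPM. Other transcripts, Mtrf1l, Camk2b and the Y-linked genes were named after their values were seen. Sequences of 31 bases were compared with all annotated transcripts.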

Additional observations from a re-analysis of the deposited data

How the results depend on the processing

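The log2 ratios of average length kept their direction with annotated lengths, without transcripts under 10% of the TPM of the gene, with TPM summed over the group and without each library in turn. Without single libraries they ran from 0.48 to 0.66 for Zbtb37, −0.81 to −0.69 for Slc35a5, 0.41 to 0.48 for Primpol, 0.41 to 0.58 for Mrrf and 0.18 (without Pax7WT 3) to 0.62 (without Pax7WT 2) for Camkk2. Without transcripts under 10%, that of Primpol was 0.33 and that of Camkk2 0.17. Without transcripts under 1000 bases, chosen after seeing the data, the ratios were 0.0023 for Zbtb37, −0.016 for Slc35a5, 0.0508 for Primpol, 0.0037 for Mrrf and 0.0070 for Camkk2, since these transcripts were removed from the average. The difference in the share of the most shifted transcript was −0.82 points by reads against −27.9 by TPM for Zbtb37-207, −9.46 against −42.1 for Slc35a5-201 and 4.94 against 29.8 for Mrrf-201, and Primpol-201 (41.9) and Camkk2-211 (15.4) moved less. Without single libraries these differences ran from −32.4 to −21.7, −48.7 to −38.5, 24.9 to 34.3, 28.5 (without Pax7KR 2) to 62.8 (without Pax7KR 3) and 12.1 to 17.4 points.

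The log2 fold change of reads of Slc35a5 reversed to 0.63 with the length offset and that of Mrrf, −0.13 to 0.026 without single libraries, to 0.026 without Pax7WT 3. The genes called between genotypes numbered 0 with edgeR (803 at an unadjusted p under 0.05), 30 with DESeq2, 157 with no filter, 13 with a replicate block and 1 to 32 without single libraries, with 32 without Pax7KR 3. For transcript use 138 genes were called, against 19 with limma, 18 with at least 10 reads in every library, 208 with a replicate block and 222 to 374 without single libraries. The cause was not tested. The labels do not say whether replicate numbers pair the samples. The deviations of same-numbered samples correlated at 0.001, 0.057 and −0.061, and those of differently numbered ones at −0.0998 to 0.0968. With 3 libraries per group these values cannot decide whether samples were paired. Without single libraries 0 to 1 listed genes were called. Transcripts with under about 10 reads per library limit the precision, since few reads there move the average length of a gene.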
